A study of Mus musculus with 9 samples.

Results

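The genes described here are the 8 guanylate-binding protein (GBP) genes *Gbp2*, *Gbp3*, *Gbp4*, *Gbp5*, *Gbp6*, *Gbp7*, *Gbp8* and *Gbp9*, chosen by their gene symbols among the 55471 genes counted. RNA sequencing was performed on mouse bone marrow-derived dendritic cells (DCs), innate immune cells that sense microbes and present antigen. The marrow came from wild-type C57BL/6 female mice aged 8 to 20 weeks, and all cells were grown in GM-CSF at 20 ng/mL. DCs were left unstimulated, activated with lipopolysaccharide (LPS, a bacterial outer membrane component sensed by Toll-like receptor 4) at 100 ng/mL, or treated with interferon-β (IFN-β, a type I interferon) at 1000 U/mL, and were compared at 6 h. Each of the 3 groups had 3 libraries with the letters A, B and C. Cultures grown in GM-CSF hold macrophage-like cells as well as DCs, so the libraries measure a mixed culture. In bulk samples, fewer cells of a type and less RNA per cell cannot be told apart.

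GBPs are large GTPases of the dynamin superfamily whose genes are switched on by interferons. The proteins assemble on vacuoles that hold pathogens and on bacteria in the cytosol, and some members carry a lipid anchor added at a CaaX motif. They are best known for opening pathogen vacuoles and for helping LPS in the cytosol reach the inflammatory caspase encoded by *Casp4* (caspase-11 in the mouse). Type I interferon acts on genes mainly through the interferon-stimulated response element (ISRE), and interferon-γ through the gamma-activated site (GAS). LPS is known to make DCs produce IFN-β themselves.

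Between 33425803 and 43735199 counts per library fell on genes, and 16260 genes, all 8 GBP genes among them, passed the filter on low counts. Levels are given in CPM, read counts scaled to a common library size that was corrected for composition with TMM factors. These factors were 0.783 to 0.841 with LPS, 0.977 to 1.02 with IFN-β and 1.18 to 1.26 without stimulation. Dendritic cell markers summed to 4405 to 5265 CPM in unstimulated DCs, 6181 to 6793 CPM under LPS and 4918 to 5217 CPM under IFN-β, and macrophage markers to 2008 to 2549, 1995 to 2605 and 2730 to 3036 CPM. None of these 7 and 6 markers was at 0 in a whole group. The dendritic cell sums rest mostly on *Cd74* and *Itgax*, with means of 2537 and 1375 CPM in unstimulated DCs. *Zbtb46* and *Flt3* had means of 32.5 and 3.06 CPM there. The sums therefore do not measure how much of each cell type was present. The macrophage markers moved both ways under LPS, where *Mertk*, *Fcgr1* and *Adgre1* rose (means of 121 to 404, 97.3 to 446 and 158 to 369 CPM) and *Csf1r* and *Mrc1* fell (1101 to 562 and 407 to 162 CPM). Under IFN-β, *Mertk* and *Fcgr1* rose. The part of other cell types in the GBP values was not tested. Granulocyte markers summed to 9.45 to 24.7 CPM over the 9 libraries. T cell, B cell and NK cell markers each summed to at most 0.609 CPM in a library, and the NK cell genes *Gzma* and *Prf1* had 0 counts in all 9 libraries.

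The GBP genes lie in 2 clusters of the mouse genome (build GRCm38). *Gbp5*, *Gbp7*, *Gbp3* and *Gbp2* lie on the plus strand of chromosome 3, at chr3:142493978-142522344, chr3:142530342-142550149, chr3:142560026-142573209 and chr3:142620602-142638008. *Gbp8*, *Gbp9*, *Gbp4* and *Gbp6* lie on the minus strand of chromosome 5, at chr5:105014150-105139540, chr5:105077630-105139539, chr5:105115767-105139586 and chr5:105270702-105293698. *Gbp4*, *Gbp8* and *Gbp9* share a first exon stretch of 60 or 61 bases, so their gene extents overlap. The counter used assigns a read only where it maps to 1 place and overlaps 1 gene, so reads on shared exons are lost. On its strand, *Gbp6* shares 29.0% of its exon bases with *Gm43302*, a gene model that spans *Gbp6* and its neighbour *Gbp10*. *Gm43302* had 0 counts in every library. *Gbp7* shares 11.3% of its exon bases with another gene model, *Gm43802*. On the opposite strand, 24 exon bases of *Gbp2* overlap *Mir6381*, and the counting is not stated to have used strand. Sequence identity adds a further loss for *Gbp6*, since 37.3% of its stretches of 100 bases also occur in another GBP gene, mostly *Gbp10*. The share was 4.39% for *Gbp8* and at most 1.65% for the other 6 members. The level of *Gbp6* is therefore uncertain, and it rests on the part of the gene that is its own.

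**Figure D1:**
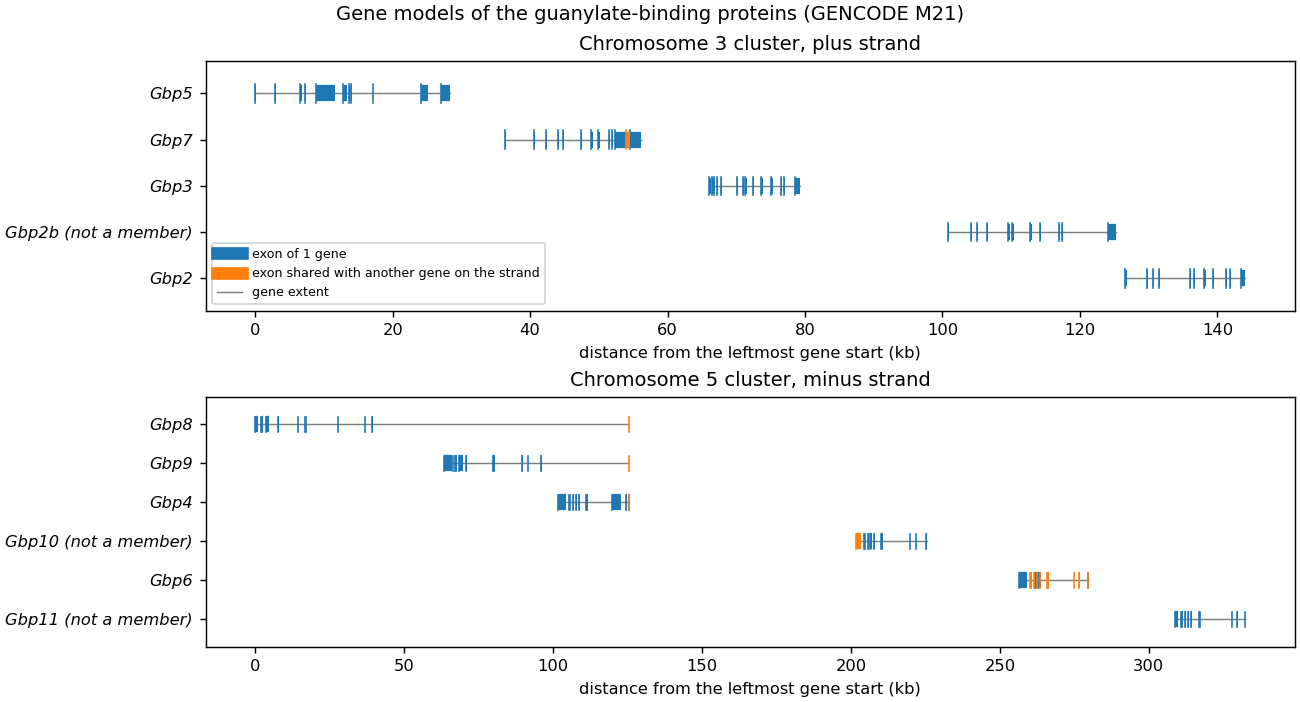
Exons of the GBP genes by distance in kb from the leftmost gene start of each cluster. Blue blocks are exon bases of 1 gene, orange blocks exon bases shared with another gene on the same strand, and a block narrower than the line is drawn at the line's width. Shared bases are seen in *Gbp6* and *Gbp10*, within *Gbp7*, and at the common first exon of *Gbp4*, *Gbp8* and *Gbp9*.

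Promoter windows, from 250 bases before to 50 bases after a gene start in RefSeq (build GRCm38.p6), were at hand for 4 members, *Gbp2*, *Gbp3*, *Gbp5* and *Gbp7*, and not for *Gbp4*, *Gbp6*, *Gbp8* and *Gbp9*. The ISRE core was searched on both strands as a pair of GAAA tetramers on the same strand, 2 bases apart. It occurred in at least 1 window of each of these 4 members and in 3.44% of all 32851 windows. Another window of *Gbp3*, at a later gene start, held no ISRE core. GAS, searched as TTCNNNGAA, occurred in the windows of *Gbp5* and *Gbp7* and in 8.3% of all windows. A motif of NF-κB, a factor activated by LPS, occurred in *Gbp5*, at bases -77 to -68 from the start, and in *Gbp2*, past the start at bases 7 to 16, and in 8.46% of all windows. The stretches below are shown because the chromosome 3 members differ in which motifs they hold. Capitals mark ISRE cores, which read as a pair of TTTC tetramers on the strand printed, and GAS matches. In *Gbp5* (chr3:142496684-142496899, plus strand) the ISRE core is at bases -165 to -156 and GAS matches are at -245 to -237 and -52 to -44. In *Gbp7* (chr3:142530086-142530335) the ISRE core is at -53 to -44 and GAS matches at -106 to -98 and -87 to -79. In *Gbp3* (chr3:142559794-142560025) a pair of overlapping ISRE cores spans bases -45 to -36 and -39 to -30. The ISRE core of *Gbp2* at -59 to -50 lies within the annotated first exon and is shown with 10 bases on each side (chr3:142620594-142620623). The other 3 stretches lie outside annotated exons.
Gbp5: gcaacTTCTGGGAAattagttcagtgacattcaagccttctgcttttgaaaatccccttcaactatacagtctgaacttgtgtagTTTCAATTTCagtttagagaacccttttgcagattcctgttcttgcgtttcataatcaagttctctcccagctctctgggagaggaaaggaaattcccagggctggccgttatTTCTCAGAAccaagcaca
Gbp7: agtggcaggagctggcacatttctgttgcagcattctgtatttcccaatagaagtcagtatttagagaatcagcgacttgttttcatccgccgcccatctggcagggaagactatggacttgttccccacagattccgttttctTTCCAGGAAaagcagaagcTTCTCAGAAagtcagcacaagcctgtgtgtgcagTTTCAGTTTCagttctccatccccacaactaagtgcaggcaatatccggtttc
Gbp3: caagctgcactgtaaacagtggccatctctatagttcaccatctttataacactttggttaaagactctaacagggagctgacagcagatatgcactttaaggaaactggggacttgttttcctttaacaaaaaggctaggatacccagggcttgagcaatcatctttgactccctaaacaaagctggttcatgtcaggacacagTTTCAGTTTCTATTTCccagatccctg
Gbp2: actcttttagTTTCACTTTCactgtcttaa
These matches describe letters in the windows and do not show that a factor was bound there.

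**Figure D2:**
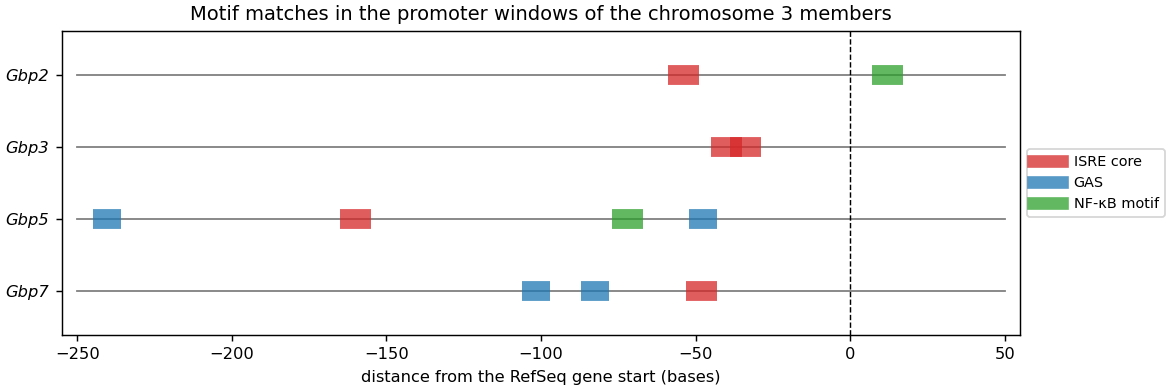
Positions of motif matches in the promoter windows of the 4 chromosome 3 members, by distance in bases from the RefSeq gene start (dashed line). Each grey line is the window from -250 to 50, and coloured blocks are the ISRE core (red), GAS (blue) and the NF-κB motif (green). Each window drawn has a red block, blue blocks are in *Gbp5* and *Gbp7*, and *Gbp5* is the member shown with all 3 colours. Another *Gbp3* window, at a later gene start and without any of these matches, is not drawn.

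The 8 GBP genes together took 0.0545%, 0.0466% and 0.0383% of the counts in libraries A, B and C of unstimulated DCs. With LPS the shares were 0.733%, 0.629% and 0.618%, and with IFN-β they were 0.413%, 0.335% and 0.358%. The groups did not overlap. LPS-activated DCs were compared with unstimulated DCs to find which genes LPS changes. All 8 GBP genes rose under LPS (edgeR's quasi-likelihood F-test, Benjamini-Hochberg adjusted p under 0.05), against 32.8% of all tested genes that were called higher and 35.4% called lower. Their median log2 fold change was 4.29, and that of all tested genes was -0.04. All 8 also rose under IFN-β, against 23.6% of all tested genes called higher and 23.3% called lower. Their median log2 fold change was 3.46, and that of all tested genes was -0.02. Both comparisons use the same unstimulated libraries and are not independent. For each member and each comparison the 3 libraries of a group lay wholly above or below the 3 of the other. The exact permutation test (two-sided) gave p = 0.1, the smallest that 3 libraries against 3 can give when shuffled freely. It did not use the letters, which pair the libraries. Of all tested genes, 34.6% lay wholly higher and 37.7% wholly lower under LPS than in unstimulated DCs. The shares were 28.5% and 29.6% for IFN-β against unstimulated, and 29.6% and 27.3% for IFN-β against LPS. Nothing in the descriptions says whether the libraries came from separate mice or cultures, so that p-values measure the spread between these libraries.

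**Figure D3:**
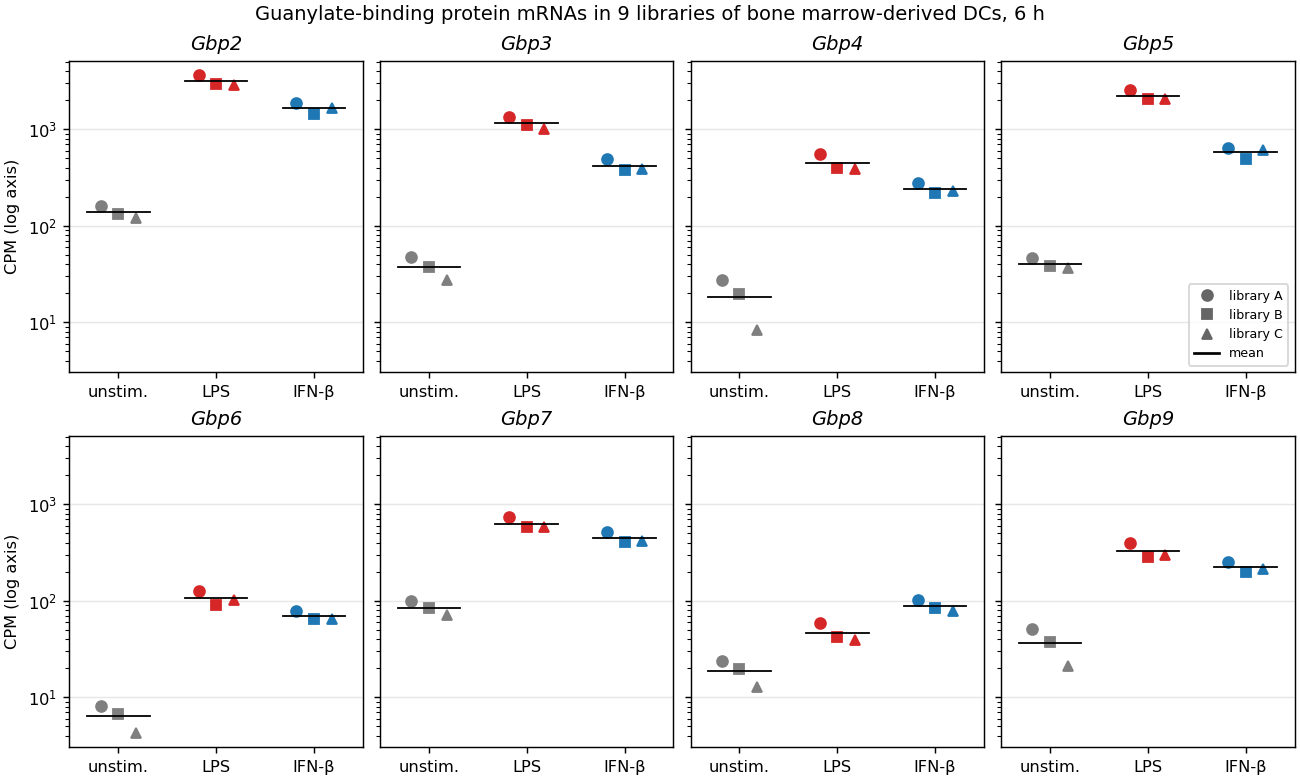
CPM (log axis) of the 8 GBP genes in each of the 9 libraries, with 1 panel per gene. Points are libraries (circle A, square B, triangle C), coloured by group (grey unstimulated, red LPS, blue IFN-β), and black lines are group means. In each panel both stimulated groups lie above the unstimulated one, and *Gbp8* is the panel in which the IFN-β points lie above the LPS points.

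On chromosome 3, *Gbp2*, a lipid-anchored member that is recruited to vacuoles holding parasites and bacteria, had 158, 133 and 121 CPM in libraries A, B and C of unstimulated DCs. LPS-activated libraries had 3629, 2965 and 2892 CPM, while those with IFN-β had 1869, 1433 and 1645 CPM. The 3 groups were separate, with LPS highest and a nearly constant spread (coefficient of variation 14.0%, 12.9% and 13.2%). *Gbp2* rose 23.0-fold in response to LPS (log2 fold change 4.53 ± 0.16, standard error) and 12.0-fold in response to IFN-β (3.59 ± 0.15). *Gbp3*, which also acts in the caspase-11 response, had 47.4, 37.4 and 27.1 CPM unstimulated, 1326, 1106 and 1009 CPM after LPS and 490, 381 and 385 CPM after IFN-β. Its log2 fold change was 4.94 ± 0.22 under LPS and 3.49 ± 0.20 under IFN-β.

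*Gbp5*, a lipid-anchored member known to promote inflammasome assembly, had 45.8, 38.6 and 36.8 CPM in unstimulated DCs. It had 2531, 2058 and 2045 CPM under LPS and 634, 494 and 612 CPM under IFN-β, so that each LPS library was above each IFN-β library by a wide gap. *Gbp5* had the largest rise of the 8 members under LPS, 54.7-fold (log2 fold change 5.77 ± 0.16). Its rise under IFN-β was 14.4-fold (3.84 ± 0.14), within the error of that of *Gbp4* (3.72 ± 0.36), and without unstimulated library A *Gbp4* was ahead (4.11 against 3.94). It ranked 112 under LPS and 108 under IFN-β among the 16260 genes by log2 fold change. *Gbp7*, linked to the delivery of oxidase and autophagy proteins to bacteria, started from 98.9, 83.5 and 72.0 CPM. It reached 735, 578 and 584 CPM under LPS and 521, 409 and 417 CPM under IFN-β. Its rises, 7.46-fold under LPS (log2 fold change 2.90 ± 0.15) and 5.29-fold under IFN-β (2.40 ± 0.15), were the lowest of the chromosome 3 members.

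On chromosome 5, *Gbp4* had 27.4, 19.8 and 8.21 CPM in libraries A, B and C of unstimulated DCs, the widest spread of any member and group (coefficient of variation 52.3%). It had 560, 393 and 383 CPM under LPS and 280, 217 and 230 CPM under IFN-β, and its log2 fold changes were 4.60 ± 0.37 and 3.72 ± 0.36. *Gbp9*, its neighbour, had 51.5, 37.1 and 21.3 CPM unstimulated, 401, 282 and 296 CPM under LPS and 253, 201 and 213 CPM under IFN-β. It rose by 3.16 ± 0.28 and 2.60 ± 0.27 on the log2 scale. *Gbp6*, counted on the part of the gene that it does not share, had 8.18, 6.76 and 4.29 CPM unstimulated, 126, 91.3 and 101 CPM under LPS and 77.5, 64.8 and 65.5 CPM under IFN-β. Its log2 fold changes were 4.05 ± 0.21 and 3.44 ± 0.21.

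*Gbp8* had a different order of the 3 groups. It had 24.1, 19.5 and 12.7 CPM in unstimulated DCs, 58.3, 42.2 and 38.8 CPM under LPS and 102, 84.4 and 78.9 CPM under IFN-β. The lowest IFN-β library was above the highest LPS library. The rise was 2.48-fold under LPS (log2 fold change 1.31 ± 0.22), the smallest of the 8 members, and 4.71-fold under IFN-β (2.24 ± 0.22). Among all tested genes 12.6% had a larger log2 fold change than *Gbp8* under LPS and 2.15% under IFN-β. The ratio of *Gbp8* to *Gbp9* counts within a library, which no scaling of libraries affects, was 0.468, 0.525 and 0.599 in unstimulated DCs, 0.145, 0.150 and 0.131 with LPS, and 0.401, 0.420 and 0.371 with IFN-β. The ratio was lower in each LPS library than in any library of the other groups.

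The direct comparison of IFN-β with LPS shows which members respond differently to the 2 stimuli. *Gbp8* was higher under IFN-β, and *Gbp2*, *Gbp3*, *Gbp4*, *Gbp5*, *Gbp6* and *Gbp7* were lower, against 25.8% of all tested genes called higher and 23.3% called lower. The median log2 difference of the 8 members was -0.75, and that of all tested genes was 0.02. *Gbp5* differed most, with a level under IFN-β that was 26.2% of the LPS level (log2 difference -1.93 ± 0.13, Benjamini-Hochberg adjusted p = 1e-06, edgeR's quasi-likelihood F-test). By the same test the log2 difference was -1.45 ± 0.19 for *Gbp3* (adjusted p = 9.6e-05) and -0.94 ± 0.14 for *Gbp2* (adjusted p = 0.00026). The difference of *Gbp8* was 0.93 ± 0.21 (adjusted p = 0.0042, edgeR). These 4 calls held without any single library, with a highest adjusted p of 0.022 for *Gbp8*.

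The other members differed less. By edgeR's test the log2 difference was -0.88 ± 0.32 for *Gbp4* (adjusted p = 0.043), -0.62 ± 0.18 for *Gbp6* (adjusted p = 0.017) and -0.50 ± 0.14 for *Gbp7* (adjusted p = 0.014). *Gbp9* had a difference of -0.55 ± 0.25 that did not pass (adjusted p = 0.096, edgeR), although its 3 IFN-β libraries lay below its 3 LPS libraries. Its 95% interval of -1.05 to -0.05 is a normal approximation, narrower than the F-test allows, so the interval alone does not show a difference. The main fit did not use the letters, which pair the libraries. With the letters as a block *Gbp9* passed, at -0.54 (adjusted p = 0.0046, edgeR). *Gbp9* also passed without unstimulated library A (adjusted p = 0.041) or C (adjusted p = 0.015), in edgeR fits that share the spread over all groups. The edgeR call of *Gbp4* was lost without unstimulated library B (adjusted p = 0.06), LPS library A, B or C (0.13, 0.062 and 0.053) or IFN-β library A, B or C (0.053, 0.12 and 0.11). The calls of *Gbp6* and *Gbp7* were lost in edgeR without LPS library A (adjusted p = 0.061 and 0.052), IFN-β library B (0.063 and 0.06) or IFN-β library C (0.055 and 0.052). With library sizes not corrected for composition, *Gbp4*, *Gbp6* and *Gbp7* did not pass (adjusted p = 0.1, 0.096 and 0.13, edgeR), at log2 differences of -0.60, -0.33 and -0.22.

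**Figure D4:**
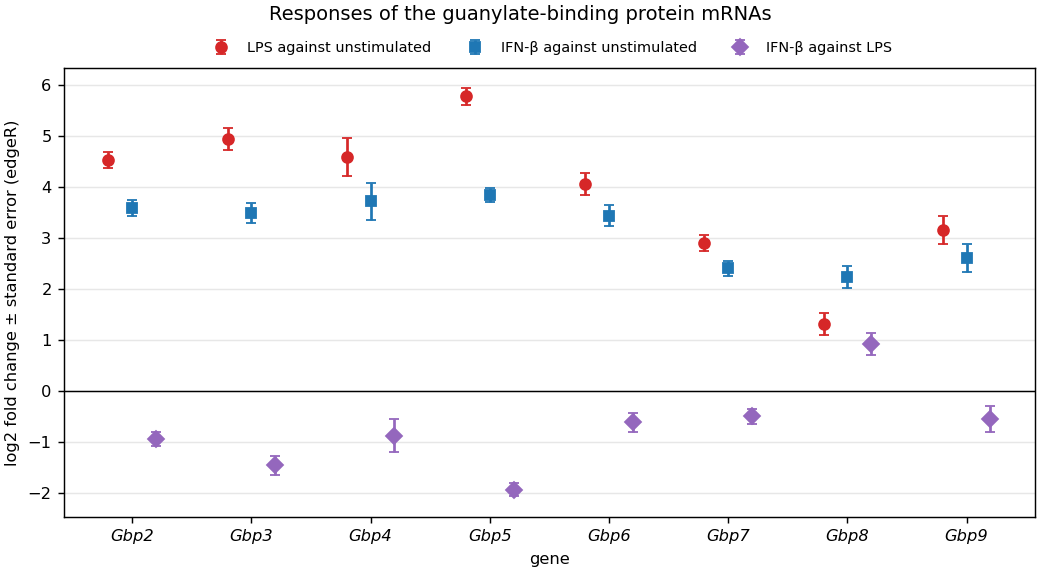
Log2 fold change of each GBP gene (points) with its standard error (bars) from edgeR, for LPS against unstimulated (red circles), IFN-β against unstimulated (blue squares) and IFN-β against LPS (purple diamonds). *Gbp5* has the highest red and lowest purple point, and *Gbp8* has the lowest red point (1.31) and the purple point above 0 (0.93).

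To compare levels between genes, CPM was divided by the length in kb of exon that belongs to 1 gene, taken over all annotated transcripts. On this scale *Gbp2* was highest in each group, at 54.6 ± 7.63 (SD, n = 3) CPM per kb in unstimulated DCs, 1257 ± 162 under LPS and 655 ± 86.7 under IFN-β. In unstimulated DCs *Gbp7* was next at 17.0 ± 2.71, followed by *Gbp3* at 11.4 ± 3.10, *Gbp9* at 7.16 ± 2.96, *Gbp5* at 6.09 ± 0.717, *Gbp8* at 5.55 ± 1.68, *Gbp4* at 2.48 ± 1.30 and *Gbp6* at 1.52 ± 0.466 CPM per kb. In this order only *Gbp2* and *Gbp7*, and *Gbp8* and *Gbp4*, were neighbours whose libraries did not overlap. Within single libraries *Gbp9* and *Gbp5*, and *Gbp5* and *Gbp8*, held this order in 2 of 3, and the other neighbours in all 3. Under LPS the order was *Gbp2*, *Gbp3* at 351 ± 49.6, *Gbp5* at 333 ± 41.7, *Gbp7* at 127 ± 17.9, *Gbp9* at 63.8 ± 12.7, *Gbp4* at 59.9 ± 13.3, *Gbp6* at 25.1 ± 4.24 and *Gbp8* at 13.7 ± 3.08 CPM per kb. The neighbours *Gbp3* and *Gbp5*, and *Gbp9* and *Gbp4*, overlapped, but within each of the 3 LPS libraries they held this order. Under IFN-β the order was *Gbp2*, *Gbp3* at 128 ± 19.0, *Gbp7* at 90.2 ± 12.6, *Gbp5* at 87.4 ± 11.4, *Gbp9* at 43.5 ± 5.32, *Gbp4* at 32.6 ± 4.46, *Gbp8* at 26.1 ± 3.49 and *Gbp6* at 16.4 ± 1.69 CPM per kb. *Gbp7* and *Gbp5*, which overlapped, swapped places when the whole exon length was used (79.9 and 87.4 CPM per kb), and *Gbp4* and *Gbp8* overlapped too. By countable length, *Gbp7* was above *Gbp5* in 2 of 3 IFN-β libraries, and *Gbp4* above *Gbp8* in all 3. These orders, and shares of the family computed from them, depend on the annotated lengths, which were 2.52 kb for *Gbp2*, 6.64 kb for *Gbp5* and 7.43 kb for *Gbp4*. Before division by length, *Gbp5* had a mean of 2211 CPM under LPS and *Gbp3* 1147 CPM. Which transcripts the cells made was not tested.

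The makeup of the family differed between the groups. *Gbp5* made up 5.81 ± 0.532% (SD, n = 3) of the summed CPM per kb in unstimulated DCs, 14.9 ± 0.210% under LPS and 8.10 ± 0.526% under IFN-β. *Gbp7* made up 16.2 ± 0.553%, 5.70 ± 0.114% and 8.35 ± 0.388%, and *Gbp8* 5.17 ± 0.698%, 0.611 ± 0.0526% and 2.42 ± 0.211%. *Gbp9* made up 6.57 ± 1.60%, 2.85 ± 0.199% and 4.03 ± 0.104%. For these members, and for *Gbp2*, the libraries of the 3 groups did not overlap. *Gbp2* made up 49.6% to 55.6% of the sum in unstimulated DCs, 55.9% to 56.7% with LPS, and 59.9% to 61.7% with IFN-β. Within a library the ratio of *Gbp5* to *Gbp7* counts was 0.463, 0.462 and 0.512 in unstimulated DCs, 3.44, 3.56 and 3.50 with LPS, and 1.22, 1.21 and 1.47 with IFN-β. The ratio of counts on the chromosome 3 members to counts on the chromosome 5 members was 3.15, 3.51 and 5.52 in libraries A, B and C of unstimulated DCs. With LPS it was 7.18, 8.29 and 7.97, and with IFN-β 4.94, 4.79 and 5.21. The LPS libraries were above all others, whereas unstimulated library C was above the 3 IFN-β libraries.

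**Figure D5:**
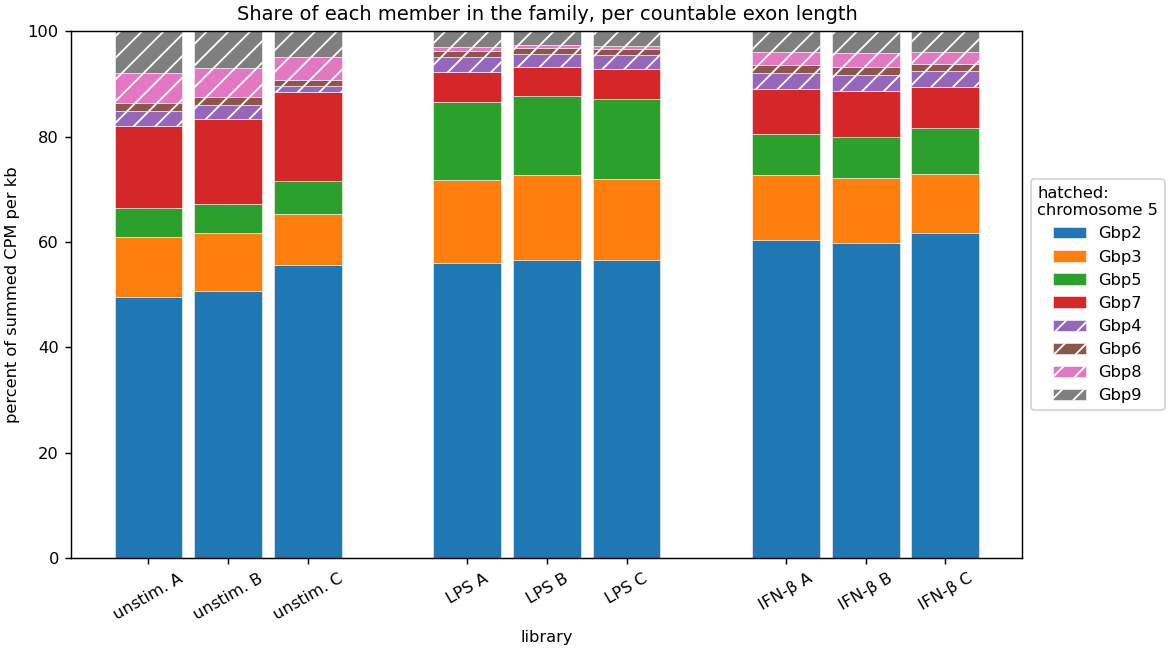
Percent of the summed CPM per kb of countable exon that each GBP gene takes, with 1 bar per library (3 unstimulated, 3 LPS, 3 IFN-β). Plain segments are chromosome 3 members and hatched segments chromosome 5 members. The *Gbp5* segment (green) is widest under LPS, the *Gbp7* segment (red) is widest in unstimulated DCs, and the *Gbp8* segment (pink) is thinnest under LPS.

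The members also varied together between libraries of 1 group. Library A had the highest CPM for all 8 members in each of the 3 groups. This held for 15% of all tested genes. It also held for 3 of 6 macrophage markers (*Adgre1*, *Fcgr1* and *Cd68*), 3 of 7 granulocyte markers (*S100a8*, *S100a9* and *Ngp*) and 3 of 7 dendritic cell markers (*Flt3*, *Cd74* and *H2-Ab1*). It held for 0 of 6 T cell, 2 of 5 B cell and 1 of 5 NK cell markers, none with more than 15 counts in a library. Other markers went the other way. The dendritic cell marker *Zbtb46* was lowest in library A of each group, at 27.8 CPM against 32.9 and 36.8 in unstimulated libraries B and C. *Adgre1* had 212, 140 and 121 CPM in unstimulated libraries A, B and C. *S100a9* had 6.06, 2.09 and 1.02 CPM there, in the same order. Library C had the lowest for 8 members in unstimulated DCs and 5 under LPS, whereas library B had the lowest for 7 under IFN-β. The highest unstimulated library was 3.33 times the lowest for *Gbp4* and 2.42 times for *Gbp9*, but 1.24 times for *Gbp5*. Under IFN-β this ratio was between 1.20 (*Gbp6*) and 1.30 (*Gbp2*). After group means were subtracted, the log2 levels of 2 members were correlated over the 9 libraries. The median Pearson correlation was 0.92 (28 pairs, range 0.69 to 0.99). This is a description, since both members of a pair are read from the same libraries. *Gbp4* and *Gbp9* were among the closest pairs, at 0.99, and *Gbp4* and *Gbp5* the least close, at 0.69.

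The 3 GBP rows outside the chosen symbols were low. *Gbp2b*, on chromosome 3 next to *Gbp2*, had 0.785, 1.10 and 0.948 CPM in unstimulated DCs, 22.6, 15.5 and 13.3 CPM under LPS and 9.39, 7.28 and 6.57 CPM under IFN-β. *Gbp11*, annotated as a polymorphic pseudogene on chromosome 5, had 1.57, 0.943 and 0.496 CPM unstimulated, 14.4, 7.25 and 5.74 CPM under LPS and 18.7, 12.7 and 12.1 CPM under IFN-β. *Gbp2b* was lower under IFN-β than under LPS, by a log2 difference of -1.14 (adjusted p = 0.00075, edgeR), while *Gbp11* had a difference of 0.68 that did not pass (adjusted p = 0.13, edgeR). *Gbp10*, which shares much of its sequence with *Gbp6*, had 0 counts in the 3 unstimulated libraries, 63, 63 and 53 counts with LPS, and 52, 20 and 42 with IFN-β. Against a floor of 3 counts per library it was at least 27.0-fold higher under LPS and at least 13.8-fold higher under IFN-β.

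Genes of the receptors, kinases and transcription factors of interferon signalling were tested alongside. Of 21 tested interferon signalling genes, 19 rose and 1 fell under LPS, against 32.8% and 35.4% of all tested genes. Under IFN-β 19 rose and 2 fell, against 23.6% and 23.3% of all tested genes. Their median log2 fold changes were 1.92 and 0.76. *Stat2*, a subunit of the complex that binds ISRE, had log2 fold changes of 2.48 after LPS and 2.15 after IFN-β. *Irf1*, a factor that also binds ISRE and acts at GBP genes, rose by 2.40 and 2.01 on the log2 scale, and *Irf9*, the DNA-binding subunit of the ISRE complex, by 1.20 and 0.74. *Ifngr1*, an interferon-γ receptor chain, fell by 1.48 and 0.66. *Ifnb1*, which encodes IFN-β, had 0, 0 and 1 counts in unstimulated DCs, 137, 117 and 93 with LPS, and 9, 5 and 9 with IFN-β. *Ifng*, which encodes interferon-γ, the strongest known inducer of GBPs, had at most 1 count in any library and was not tested. Between the stimuli, 13 of the 21 genes were lower and 1 was higher under IFN-β, against 23.3% and 25.8% of all tested genes. *Irf1* was among the 7 that did not pass (log2 difference -0.39, edgeR adjusted p = 0.091).

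Lists of genes that act with GBPs were counted in the same way. Their counts are to be read against the shares of all tested genes called higher and lower. These were 32.8% and 35.4% under LPS, 23.6% and 23.3% under IFN-β, and 25.8% and 23.3% for IFN-β against LPS. Of 10 genes of the cytosolic LPS and inflammasome list, 9 rose and 1 fell under LPS, and 9 rose and 0 fell under IFN-β. *Casp4* rose from a mean of 14.5 CPM to 245 CPM with LPS and 94.4 CPM with IFN-β. *Gsdmd*, whose product forms the pore of pyroptosis, rose by 1.27 and 0.94 on the log2 scale, and *Aim2*, a sensor of DNA, by 1.78 and 1.24. *Pycard*, the inflammasome adaptor, fell by 0.76 under LPS and rose by 0.72 under IFN-β, and *Il1b* rose by 7.14 under LPS and had a log2 fold change of 0.45 under IFN-β (adjusted p = 0.26, edgeR). All 10 tested immunity-related GTPases, which guard vacuoles together with GBPs, rose under both stimuli, with medians of 3.62 and 3.29, and *Ifi47* was the 1 whose difference between IFN-β and LPS passed (log2 difference -0.69, adjusted p = 0.033, edgeR). Of 6 other large GTPases, 4 rose and 1 fell in each comparison with unstimulated DCs, among them *Mx1*, an antiviral relative, by 4.32 and 3.39. Of 7 prenylation and CaaX processing genes, 2 rose and 3 fell under each stimulus. These 7 and the 10 genes for ATG8 conjugation, the autophagy machinery that directs GBPs to vacuoles, had shares under LPS near those of all tested genes. *Pggt1b*, a subunit of the enzyme that attaches the geranylgeranyl anchor, rose by 0.70 and 0.47, and *Fntb*, a subunit of farnesyltransferase, fell by 0.87 and 0.73. Of the ATG8 conjugation genes, 4 rose and 4 fell under LPS, and 4 rose and 2 fell under IFN-β. *Atg7* fell by 1.29 under LPS and by 0.37 under IFN-β. The inflammation and interferon genes used as a check of stimulation rose in 8 of 8 cases under LPS and 7 of 8 under IFN-β, where *Il12b* had a log2 fold change of 0.33 (adjusted p = 0.13, edgeR).

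Among tested genes outside the family, *Daxx*, *Tnfsf10*, *Ifi47*, *Ddx60* and *Mov10* had the pattern most like that of the 8 members. Their log2 levels correlated with the mean standardised level of the members over 9 libraries with Pearson's r of 0.9986 to 0.9991, a description of libraries in 3 groups. *Daxx* had means of 49.1, 432 and 304 CPM in unstimulated, LPS-activated and IFN-β-treated DCs, and *Tnfsf10* had 3.02, 148 and 89.2 CPM. Of the members themselves, *Gbp6* (r = 0.999) and *Gbp7* (r = 0.998) were closest to the family mean, and *Gbp5* (r = 0.974) and *Gbp8* (r = 0.845) were the farthest from it, ranking 539 and 2488 among all genes. The family mean includes each member's own values, so the r and ranks of members cannot be set directly against those of other genes.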

How the data were processed

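RNA was sequenced from 9 libraries of bone marrow-derived DCs in 3 groups, by ribosomal RNA depletion and paired-end reads. The authors trimmed reads with Trim Galore (0.6.0 in the submitters' processing notes), mapped them with STAR (2.7.8a in the notes, another version in the methods) to GRCm38 and deposited the raw gene counts on GENCODE M20, without normalization. The strand setting is not given in the sources used here. Total counts were 33425803 to 43735199 per library, and floors set from them cover counting error alone. Exon lengths, overlaps and gene positions came from GENCODE M21, in which all 8 members were found by identifier.

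Counts were tested with edgeR 4.0.16 (R 4.3.3): genes were filtered with filterByExpr, scaled with TMM factors and fitted with a quasi-likelihood model over the 3 groups, and p-values were adjusted over 16260 genes by the Benjamini-Hochberg method with a threshold of 0.05. For likeness between genes a pseudocount of 0.5 CPM was added before log2. The script was tested on simulated data. The 8 members, all genes of the fixed lists and the 5 genes most like the members could be named. The members and lists were chosen with earlier results of these data known. Of the lists, *Irgb10* was not found by its symbol, and *Ifng* did not pass the filter. Of the cell type markers, 4 of 7 granulocyte, 1 of 6 T cell, 0 of 5 B cell and 0 of 5 NK cell markers passed it. A gene of the interferon signalling list is not reported here by name. No pair of replicates agreed within sampling noise (chi-square per degree of freedom 12.9 to 35.9).

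After group means were subtracted, each of the 9 pairs of libraries with the same letter had a correlation across genes above 0.1 (0.134 to 0.546), and the 18 pairs with different letters had -0.480 to 0.0622. The letters of the sample names therefore pair the libraries, and a fit with the letters as a replicate block was run as an alternative. Genes are not independent replicates. Other alternatives were library size without TMM factors, upper-quartile factors, DESeq2 1.42.0, other low-count filters, the compared groups alone, stricter thresholds and each library left out in turn.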

Additional observations from a re-analysis of the deposited data

How the results depend on the processing

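All 8 members rose under LPS and under IFN-β in each of the 18 alternatives run. The comparison of IFN-β with LPS was less stable: 7 members were called, but 4 with library size only, 4 at an adjusted p under 0.01 and 2 where a 2-fold change was also required. Leaving out 1 library gave 4 to 8 called members, with 4 without LPS library A, IFN-β library B or IFN-β library C. The replicate block called 8 members, since *Gbp9* passed (log2 difference -0.54, adjusted p = 0.0046, edgeR), and it changed no other member's call. *Gbp2*, *Gbp3*, *Gbp5* and *Gbp8* passed in all 16 alternatives that refit this comparison, *Gbp6* and *Gbp7* in 12, *Gbp4* in 8 and *Gbp9* in 5, and no member changed direction. The cause of the lost calls was not tested, but leaving out a library leaves fewer samples. Scaling by library size only shifted the median over all genes by -0.58 (LPS), -0.31 (IFN-β) and 0.27 (IFN-β against LPS) in log2 fold change. Each member had at least 190 counts in each library (*Gbp6* in unstimulated library C), whereas *Gbp10* had 0 counts in unstimulated DCs, so only a lower bound can be given for it.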
